A study of Homo sapiens with 6 samples.

Results

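The 10 genes described here encode Notch receptors (*NOTCH1*, *NOTCH2*, *NOTCH3*), Notch ligands (*JAG1*, *JAG2*, *DLL1*) and genes that Notch signaling commonly switches on (*HES1*, *HES4*, *HEY1*, *NRARP*). They were chosen by name, and all 10 were found among the 39739 gene rows of the deposited tables. RNA-seq covered 3 libraries of HGC27 cells in which the *FN1* 3′-UTR was stably overexpressed after lentiviral infection and puromycin selection (HGC27-FN1 3′-UTR) and as many libraries of HGC27-control cells. The line is an established human gastric cancer cell line, and the study asked which genes change when the untranslated end of the fibronectin mRNA is overexpressed. The sources used here do not say whether the 3 libraries of a group came from separate infections or cultures, so the p-values measure only the spread between these libraries, and what the control cells carried is not stated. A difference between the groups and a difference between the selected cell populations cannot be told apart.

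Notch receptors are single-pass membrane proteins that bind Jagged or Delta-like ligands on a neighbouring cell. Binding exposes the receptor to an ADAM protease and then to γ-secretase, and the released intracellular domain joins RBPJ and a Mastermind protein on DNA to activate HES and HEY genes, which encode transcriptional repressors. NRARP is a target that feeds back to limit the same pathway, and Notch is known in the stomach for its role in progenitor cells.

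RBPJ binds DNA at sites with the core TGGGAA, and the reference promoters of the members were read to show which of them carry it close to the start. Promoter sequences were those of RefSeq on GRCh38.p14, from 250 bases before to 50 bases after each gene's start, and 8 of the 10 members had an entry, with none for *DLL1* and *HEY1*. The letters TGGGAA, on either strand, were found in 2 of these 8 promoters, those of *HES1* and *HES4*, and in 24.0% of all 35116 promoters in the table. The longer form GTGGGAA was also found in both, against 6.25% of all promoters. Distances are counted from the RefSeq start that the table uses. Each stretch below is written 5′ to 3′ on the strand of the gene, with the core in capitals. The *HES1* stretches lie on the forward strand at chr3:194136055-194136078 and chr3:194136069-194136092 and share 10 bases, and the *HES4* stretch lies on the reverse strand at chr1:1000159-1000182. The *HES4* stretch crosses position 1000172, where the deposited tables place the start of *HES4*, so its distance holds for the RefSeq start only.
HES1, core starting 84 bases before the RefSeq start: aagttactgTGGGAAagaaagttt
HES1, core starting 70 bases before the RefSeq start: aagaaagttTGGGAAgtttcacac
HES4, core starting 76 bases before the RefSeq start: gggcgagtgTGGGAAagaatgcgg
The match of letters is a description of the reference and not a measured binding site. The absence of these letters from the other 6 windows covers these 300 bases only.

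Levels are given as RPKM values, which the authors deposited and which scale the reads of each gene to 1 kilobase of merged exons and to 1000000 reads assigned to genes. Because RPKM is a level per length, genes can be set side by side, but their order depends on the merged exon length. That length was 16804 bases for *NOTCH2* and 9394 for *NOTCH3*. In HGC27-FN1 3′-UTR replicate 1 *NOTCH2* had 1307 reads and *NOTCH3* 992, though *NOTCH3* had the higher RPKM. Which transcripts of a gene were present was not examined. The libraries held between 16357085 and 37037532 reads assigned to genes, with HGC27-FN1 3′-UTR replicate 1 the shallowest, and whole reads were recovered from the RPKM. *FN1* itself measured 0.777, 0.745 and 0.819 RPKM in HGC27-FN1 3′-UTR replicates 1 to 3 and 0.543, 0.474 and 0.532 in HGC27-control replicates 1 to 3, a log2 fold change of 0.52 (limma adjusted p = 0.0292). That value covers all exons of *FN1*, and the call was lost without any one of the 6 libraries (limma adjusted p between 0.0614 and 0.0982). Of markers of the gastric epithelial label, 7 of the 11 tested epithelial markers were called higher in HGC27-FN1 3′-UTR cells (limma adjusted p under 0.05). So were 4 of 5 tested gastric mucosa markers, beside 5.62% of all genes tested. Among these, *KRT7*, *KRT19*, *ELF3*, *CTSE* and *PLA2G2A* reached the minimum level of the test only through the HGC27-FN1 3′-UTR libraries, so the counts are partly fixed by that minimum and are given as a description. The defining gastric markers *TFF1*, *MUC5AC* and *PGC* had at most 1 read in any library. Their part in the Notch results was not tested.

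**Figure D1:**
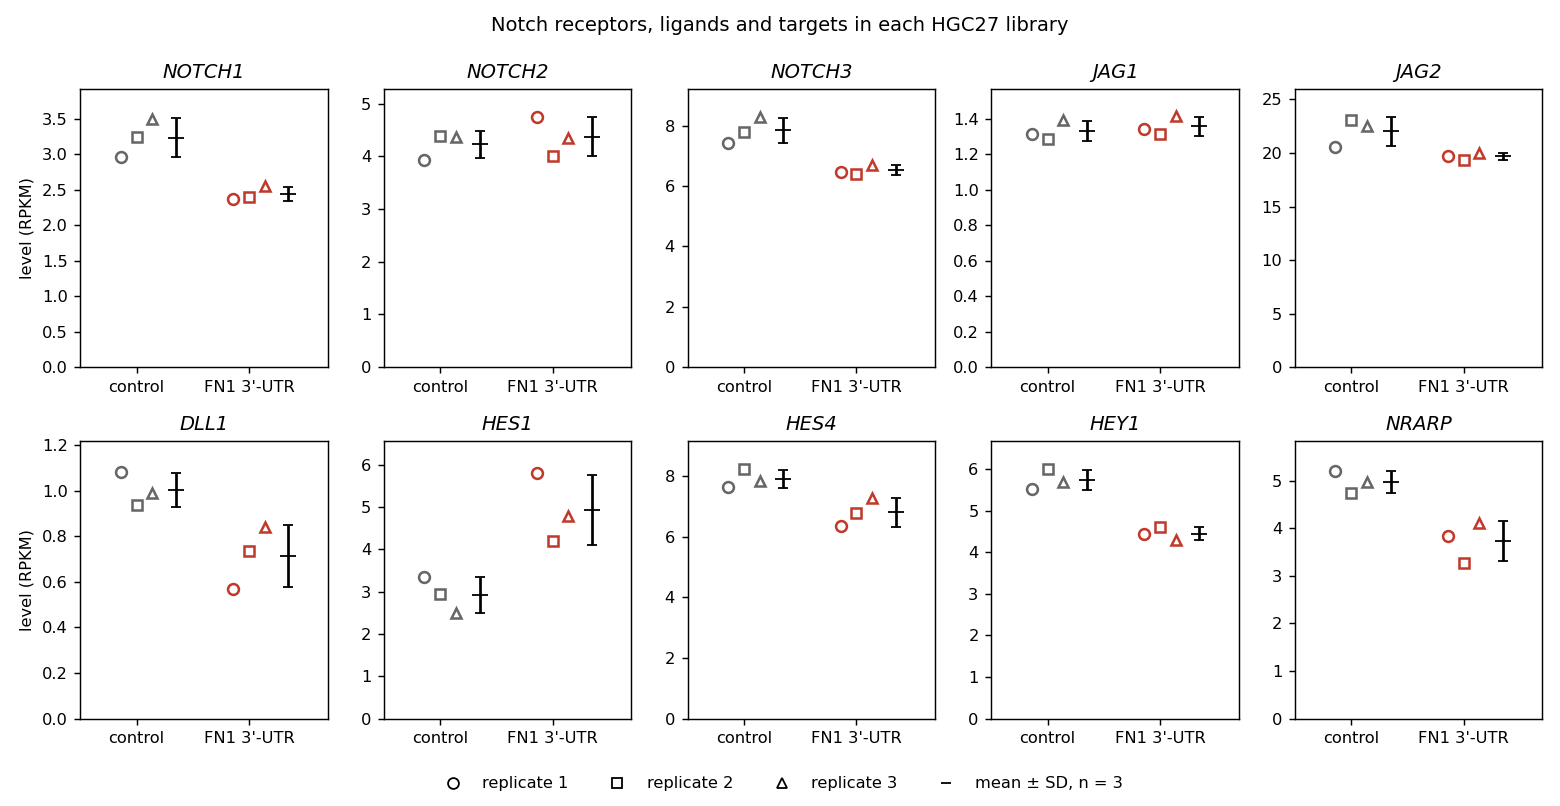
Level of each Notch member in RPKM (vertical axis, starting at 0) in the 3 HGC27-control libraries (grey) and the 3 HGC27-FN1 3′-UTR libraries (red), with the mean and SD of each group in black (n = 3). HES1 is the member whose red points all lie above the grey ones, NOTCH2 and JAG1 overlap, and the other 7 members have all red points below the grey ones.

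Both groups entered a two-sided limma comparison of log2(RPKM + 0.1) over 23299 genes, and a gene was called at a Benjamini-Hochberg adjusted p under 0.05 over all of them. All 10 members reached the minimum level and were tested. *HES1* was called higher in HGC27-FN1 3′-UTR cells, where 5.62% of all genes tested were called higher, and 4 members (*NOTCH1*, *NOTCH3*, *HEY1* and *NRARP*) were called lower, where 7.36% of all genes were. In either direction 13.0% of all genes were called. The groups did not overlap in the lower direction for 7 members, against 21.7% of all genes tested, and in the higher direction for *HES1*, against 14.3%. In either direction this held for 36.0% of all genes. The median log2 fold change of the 10 members was -0.239, and that of all genes tested was -0.035. The members were chosen with results of these libraries known, so these shares describe the 10 genes and test nothing about them as a set. No member had an absolute log2 fold change above 1 with an unadjusted p under 0.05, a limit that 1.65% of all genes passed in the higher and 0.815% in the lower direction.

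In the control cells *JAG2* had the highest level of the 10 members, followed by *HES4*, *NOTCH3*, *HEY1*, *NRARP*, *NOTCH2*, *NOTCH1*, *HES1*, *JAG1* and *DLL1*. Among these neighbours, the library values of *HES4* and *NOTCH3* overlapped, as did those of *NOTCH1* and *HES1*, and the values of the other neighbours did not. In HGC27-FN1 3′-UTR cells *HES1* stood between *NOTCH3* and *HEY1* at a mean of 4.93 RPKM, above the means of the receptors *NOTCH1* and *NOTCH2*. The library values of *HES1* (4.19 to 5.81 RPKM) overlapped those of *NOTCH2* (4.02 to 4.76 RPKM). In those cells the values of *HES4* and *NOTCH3* overlapped, and so did those of *HES1* and *HEY1*, of *HEY1* and *NOTCH2* and of *NOTCH2* and *NRARP*.

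*NOTCH3* was the receptor with the highest level in every library. It lies on the reverse strand of chromosome 19 (15159038 to 15200981, GRCh38) and measured 6.46, 6.39 and 6.70 RPKM in HGC27-FN1 3′-UTR replicates 1 to 3 and 7.44, 7.80 and 8.27 RPKM in HGC27-control replicates 1 to 3. Every HGC27-FN1 3′-UTR value lay below every control value, and the spread was narrower in the HGC27-FN1 3′-UTR group. The mean fell from 7.84 ± 0.421 to 6.51 ± 0.165 RPKM (SD, n = 3 each), with a log2 fold change of -0.26 (SE, the standard error, 0.050, limma adjusted p = 0.0228), which is 16.9% lower by mean RPKM. Between 992 and 2879 reads per library lay behind these values. The call held without control replicate 1 (limma adjusted p = 0.0299) and was lost without any other library (adjusted p between 0.0511 and 0.0817), with a log2 fold change between -0.30 and -0.22.

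*NOTCH1*, the founding receptor of the family, lies on the reverse strand of chromosome 9 (136494444 to 136545862). It measured 2.38, 2.40 and 2.55 RPKM in the HGC27-FN1 3′-UTR replicates and 2.96, 3.24 and 3.50 RPKM in the control replicates. The groups did not overlap. The mean fell from 3.23 ± 0.272 to 2.44 ± 0.094 RPKM (SD, n = 3 each), 24.5% lower, with a log2 fold change of -0.39 (SE 0.075, limma adjusted p = 0.0235). The call held without control replicate 1 (limma adjusted p = 0.0270) and was lost without any other library (adjusted p between 0.0511 and 0.0850), and the log2 fold change stayed between -0.45 and -0.33.

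*NOTCH2*, on the reverse strand of chromosome 1 (119911553 to 120069626), measured 4.76, 4.02 and 4.34 RPKM in the HGC27-FN1 3′-UTR replicates and 3.93, 4.40 and 4.36 RPKM in the control replicates. The groups overlapped, and the highest value came from HGC27-FN1 3′-UTR replicate 1. The log2 fold change was 0.05, with a 95% interval from -0.14 to 0.23 (limma adjusted p = 0.755). *NOTCH2NL*, a partial copy of *NOTCH2* nearly identical in sequence, had a similar log2 fold change of 0.04 (limma adjusted p = 0.702), and how reads were split between the copies is not stated, so both values are uncertain.

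The makeup of the receptors can be read within each library, as a description with no test. *NOTCH2* made up 35.0%, 31.4% and 31.9% of the summed RPKM of *NOTCH1*, *NOTCH2* and *NOTCH3* in the HGC27-FN1 3′-UTR replicates and 27.4%, 28.5% and 27.0% in the control replicates. *NOTCH1* made up 17.5% to 18.8% in the first group and 20.7% to 21.7% in the second. The groups overlapped for neither share. The summed level of the 3 receptors was 15.3 ± 0.913 RPKM (SD, n = 3) among the controls, against 13.3 ± 0.453 RPKM (SD, n = 3) with the overexpressed 3′-UTR. *NOTCH4*, the remaining receptor, stayed under the minimum level, with 42 reads summed over the controls and 57 over HGC27-FN1 3′-UTR, and was not tested.

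*JAG2*, a Jagged ligand on the reverse strand of chromosome 14 (105140981 to 105168824), was the most abundant ligand. It measured 19.8, 19.3 and 19.98 RPKM in the HGC27-FN1 3′-UTR replicates and 20.5, 23.1 and 22.6 RPKM in the control replicates, from 2068 to 5347 reads per library. Each HGC27-FN1 3′-UTR value lay below each control value, with control replicate 1 nearest to them. The log2 fold change was -0.16 (SE 0.049, 95% interval -0.28 to -0.04, limma adjusted p = 0.0830) and did not pass the test. Of the fits that left out a library, it passed only without control replicate 1 (-0.21, limma adjusted p = 0.0264). Without any other library it did not pass (limma adjusted p between 0.144 and 0.218). An exon of *JAG2* overlaps the gene *RP11-44N21.4* on the same strand, so reads of the shared bases are uncertain.

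*JAG1*, the other Jagged ligand, lies on the reverse strand of chromosome 20 (10637684 to 10674107). Its level was 1.34, 1.31 and 1.42 RPKM in the HGC27-FN1 3′-UTR replicates and 1.31, 1.29 and 1.39 RPKM in the control replicates. The groups overlapped almost wholly. *JAG1* had a log2 fold change of 0.03, with a 95% interval from -0.15 to 0.21 (limma adjusted p = 0.852). An exon of *JAG1* overlaps that of *RP11-103J8.1* on the opposite strand, and whether the counting used strand is not stated. *JAG2* exceeded *JAG1* by 14.8, 14.7 and 14.1 times per length in the HGC27-FN1 3′-UTR replicates and by 15.6, 18.0 and 16.2 times in the control replicates.

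*DLL1*, a Delta-like ligand on the reverse strand of chromosome 6 (170282206 to 170306565), had the lowest level of the members. It measured 0.569, 0.736 and 0.839 RPKM in the HGC27-FN1 3′-UTR replicates and 1.08, 0.935 and 0.988 RPKM in the control replicates. The groups did not overlap, and the lowest value rested on 30 reads in the shallowest library, where counting alone gives a relative error of 18.3%. For *DLL1* the log2 fold change was -0.45 (SE 0.15, 95% interval -0.81 to -0.09, limma adjusted p = 0.101) and did not pass the test.

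*DLL4*, a Delta-like ligand best known from blood vessels, was another low ligand and was named by a rule on pathway genes. It measured 0.0772, 0.121 and 0.108 RPKM in the HGC27-FN1 3′-UTR replicates, from 6, 14 and 15 reads, and 0.320, 0.335 and 0.273 RPKM in the control replicates, from 34, 49 and 48 reads. The groups did not overlap, and the gene reached the minimum level of 0.1 RPKM in 3 libraries only with the control group. The mean RPKM in HGC27-FN1 3′-UTR cells was 0.33 of the control mean, and the log2 fold change on log2(RPKM + 0.1), which understates changes at this level, was -1.02 (SE 0.19, limma adjusted p = 0.0206). The call was lost without any one of the 6 libraries (limma adjusted p between 0.0508 and 0.0860). The ligand-like gene *DLK2* was also called lower (log2 fold change of -0.38, limma adjusted p = 0.0307), a call lost without any library but control replicate 1. The endothelial markers *PECAM1*, *CDH5*, *VWF*, *KDR* and *TIE1* summed to at most 0.0344 RPKM in any library.

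**Figure D2:**
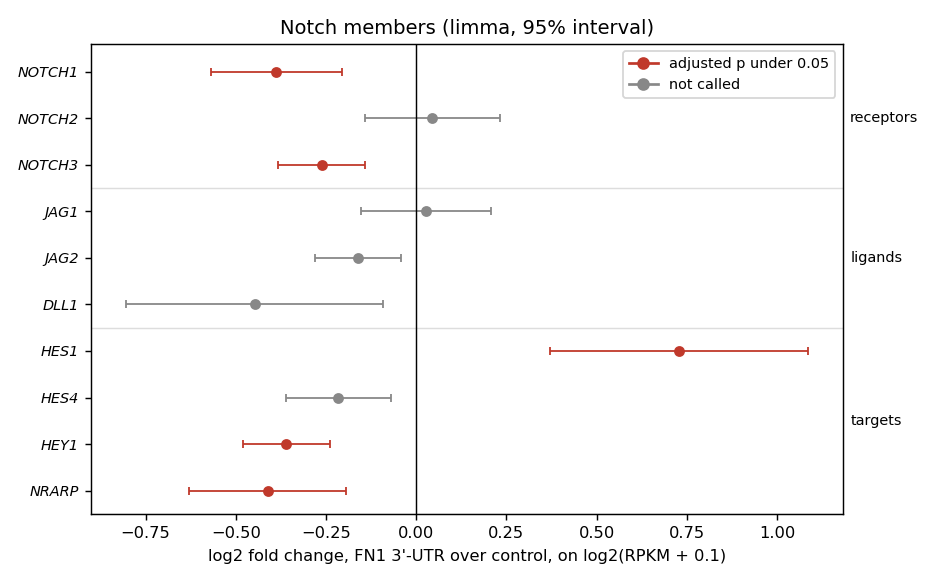
Log2 fold change of each Notch member, HGC27-FN1 3′-UTR over HGC27-control, on log2(RPKM + 0.1), with its 95% interval from limma and n = 3 libraries in each group. Red marks an adjusted p under 0.05: HES1 at 0.73 lies to the right of 0, and NOTCH1, NOTCH3, HEY1 and NRARP lie between -0.41 and -0.26.

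*HES1*, the best known Notch effector, encodes a basic helix-loop-helix repressor and lies on the forward strand of chromosome 3 (194136145 to 194138732). It measured 5.81, 4.19 and 4.80 RPKM in the HGC27-FN1 3′-UTR replicates and 3.34, 2.96 and 2.49 RPKM in the control replicates, from 154 to 289 reads per library. Every HGC27-FN1 3′-UTR value lay above every control value, although both groups were spread widely. The mean rose 1.68-fold, from 2.93 ± 0.429 to 4.93 ± 0.819 RPKM (SD, n = 3 each), with a log2 fold change of 0.73 (SE 0.15, limma adjusted p = 0.0269). The call held without HGC27-FN1 3′-UTR replicate 2 (limma adjusted p = 0.0396) and without control replicate 1 (0.0393) and was lost without any one of the other 4 libraries (between 0.0666 and 0.0846), with a log2 fold change between 0.61 and 0.84.

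*HEY1*, another basic helix-loop-helix repressor, lies on the reverse strand of chromosome 8 (79764010 to 79767863) and went the other way. It measured 4.45, 4.60 and 4.30 RPKM in the HGC27-FN1 3′-UTR replicates and 5.53, 5.99 and 5.70 RPKM in the control replicates. The groups were apart by more than the spread within either. The mean fell from 5.74 ± 0.236 to 4.45 ± 0.149 RPKM (SD, n = 3 each), 22.5% lower, with a log2 fold change of -0.36 (SE 0.050, limma adjusted p = 0.00913). This call held in each of the 6 fits that left out a library (limma adjusted p between 0.0225 and 0.0432).

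*NRARP*, which encodes an ankyrin-repeat feedback inhibitor of Notch, lies on the reverse strand of chromosome 9 (137300482 to 137302251). It measured 3.83, 3.26 and 4.10 RPKM in the HGC27-FN1 3′-UTR replicates and 5.21, 4.75 and 4.97 RPKM in the control replicates. The groups did not overlap. The mean fell from 4.98 ± 0.232 to 3.73 ± 0.429 RPKM (SD, n = 3 each), with a log2 fold change of -0.41 (SE 0.090, limma adjusted p = 0.0335). The call held without HGC27-FN1 3′-UTR replicate 3 (limma adjusted p = 0.0405) and was lost without any other library (between 0.0532 and 0.0913).

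*HES4*, a close relative of *HES1* on the reverse strand of chromosome 1 (998962 to 1000172), shares with it the motif shown above. It measured 6.34, 6.78 and 7.29 RPKM in the HGC27-FN1 3′-UTR replicates and 7.65, 8.24 and 7.82 RPKM in the control replicates. Each HGC27-FN1 3′-UTR value lay below each control value, from 116 to 324 reads per library. The log2 fold change was -0.22 (SE 0.061, 95% interval -0.36 to -0.07, limma adjusted p = 0.0680) and did not pass the test.

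The balance of *HES1* against the other targets can be read within each library. The ratio of *HES1* to *HES4* was 0.916, 0.618 and 0.658 in the HGC27-FN1 3′-UTR replicates and 0.437, 0.359 and 0.318 in the control replicates. *HES1* exceeded *NRARP* in all 3 HGC27-FN1 3′-UTR libraries, with ratios from 1.17 to 1.52, and was below it in all 3 control libraries, with ratios from 0.50 to 0.642. The ratio of *HES1* to *HEY1* was 1.11 ± 0.198 (SD, n = 3) and 0.512 ± 0.0856 (SD, n = 3). In none of these ratios did the groups overlap.

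Other genes of the HES and HEY families were taken from a list by role, of which 5 of 7 were tested. *HES6*, *HES7* and *HEYL* were called lower and *HEY2* higher, and *HES2* was not called. Apart from *HEYL* and *HES5*, the HES and HEY genes of this list are named here after their values were seen. *HES7*, known as an oscillating repressor in somite formation, had the highest level of the family, at 19.5, 21.2 and 20.2 RPKM in the HGC27-FN1 3′-UTR replicates and 29.6, 28.6 and 27.9 RPKM in the control replicates. It lies on the reverse strand of chromosome 17 (8120590 to 8124092), and the groups did not overlap. For *HES7* the log2 fold change was -0.50 (SE 0.042, limma adjusted p = 0.00203), and the call held in each fit that left out a library (between 0.00660 and 0.0163).

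*HES6*, which encodes an atypical family member that can oppose HES1, measured 16.2, 15.9 and 15.6 RPKM in the HGC27-FN1 3′-UTR replicates and 20.4, 20.9 and 24.5 RPKM in the control replicates. The groups did not overlap, and control replicate 3 was the highest. The log2 fold change was -0.46 (SE 0.070, limma adjusted p = 0.0121), with an adjusted p between 0.00802 and 0.0446 when a library was left out. *HEYL*, a low member of the HEY family, fell from 1.39 ± 0.097 to 0.866 ± 0.087 RPKM (SD, n = 3 each), with a log2 fold change of -0.62 (limma adjusted p = 0.0156), and its call was lost without control replicate 2 (adjusted p = 0.0523).

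*HEY2*, the relative of *HEY1* best known from heart and vessels, was higher at 5.17, 5.02 and 4.91 RPKM in the HGC27-FN1 3′-UTR replicates against 4.13, 4.43 and 4.48 RPKM in the control replicates. Its log2 fold change was 0.21 (SE 0.050, limma adjusted p = 0.0437), and the call was lost without any one of the 6 libraries (between 0.0720 and 0.125). *HEY1* was above *HEY2* in all 3 control libraries, by 1.34, 1.35 and 1.27 times, and below it in all 3 HGC27-FN1 3′-UTR libraries, at 0.859, 0.916 and 0.876. The summed level of 8 detected HES and HEY genes was 73.5 ± 1.11 RPKM (SD, n = 3) among the controls, against 58.8 ± 0.35 RPKM (SD, n = 3) with the overexpressed 3′-UTR. *HES1* made up 3.33% to 4.59% of that sum in the control libraries and 7.08% to 9.89% in the others, and *HES7* made up 37.2% to 40.6% and 33.2% to 35.9%. *HES5*, a Notch target of the nervous system, had 1 read over all 6 libraries.

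**Figure D3:**
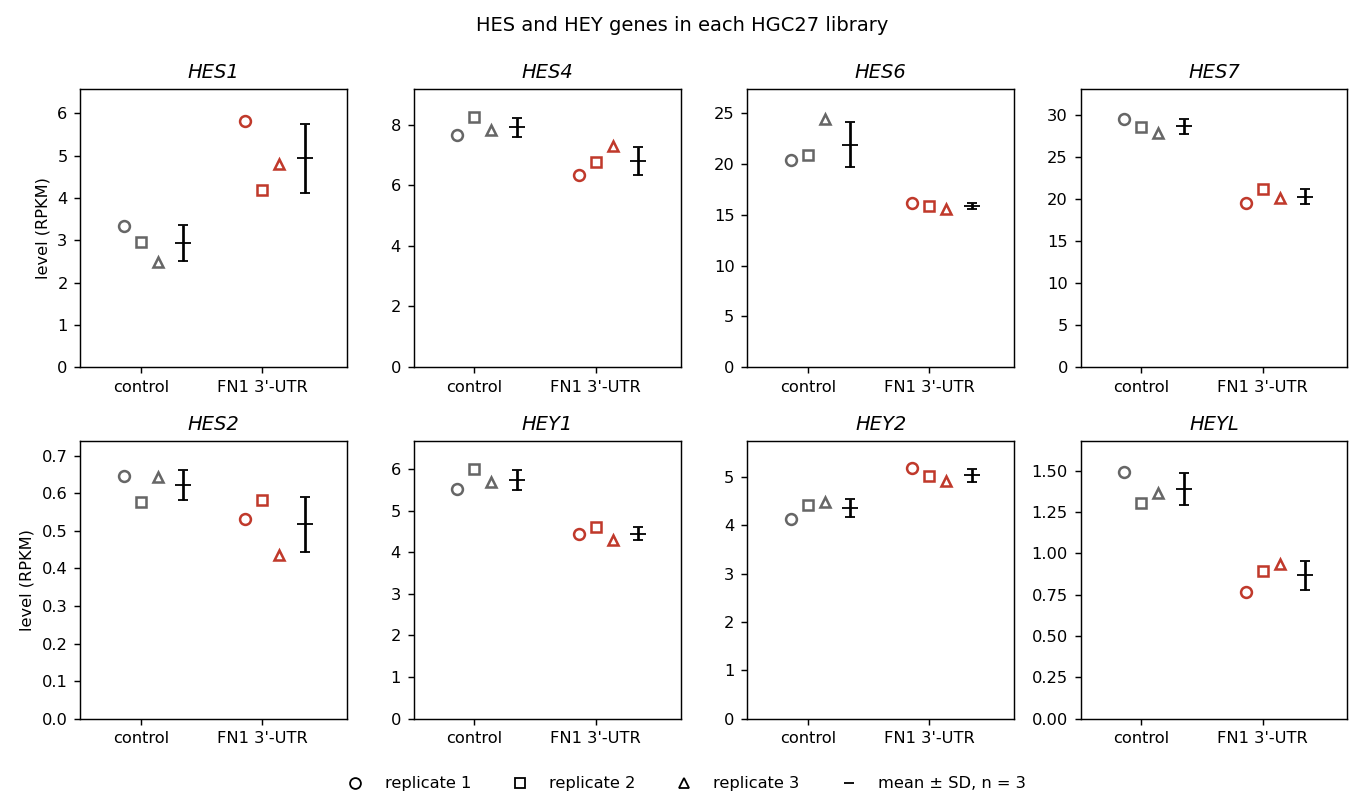
Level in RPKM (vertical axis, starting at 0) of 8 HES and HEY genes in the 3 HGC27-control libraries (grey) and the 3 HGC27-FN1 3′-UTR libraries (red), with the mean and SD of each group in black (n = 3). HES1 and HEY2 have all red points above the grey ones, HES2 overlaps, and the other 5 genes have all red points below.

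The rest of the pathway was taken from the same list, of which 60 genes outside the 10 members were analysed here, the HES and HEY genes and *DLL4* included. Of these, 50 reached the minimum level, 4 were called higher (*HEY2*, *MAML2*, *TLE4* and *SOX9*) and 12 were called lower, beside 5.62% and 7.36% of all genes. Among the 12, *DLL4* reached the minimum level only with the control group, so that count is partly fixed by the minimum. Their median log2 fold change was -0.10. The 10 genes under the minimum level were *NOTCH4*, *DLL3*, *DLK1*, *DNER*, *MFNG*, *NEURL1*, *DTX1*, *DTX3*, *HES3* and *HES5*. In the following paragraphs *MAML2*, *TLE4*, *SOX9*, *RBPJ*, *ADAM10* and *ADAM17* were named by rule, and the other genes were picked after their values were seen. Enzymes that add sugars to the receptor (*POFUT1*, *POGLUT1*, *LFNG* and *RFNG* were tested) and ubiquitin ligases that act on the ligands (*MIB1*, *MIB2* and *NEURL1B*) held no call.

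Among the 8 genes of receptor cleavage analysed here, *PSENEN*, which encodes a small accessory subunit of γ-secretase, was called lower, with a log2 fold change of -0.23 (limma adjusted p = 0.00841). The call held in each fit that left out a library. *ADAM10*, the protease that makes the first ligand-dependent cut, measured 3.21, 3.01 and 3.00 RPKM in the HGC27-FN1 3′-UTR replicates and 2.5, 2.69 and 2.70 RPKM in the control replicates. Its log2 fold change was 0.22 (limma adjusted p = 0.0607) and did not pass the test. It was called in 3 of 14 alternatives, among them median-ratio scaling (limma adjusted p = 0.0306). The gene was called in 0 of the 6 fits that left out a library (limma adjusted p between 0.106 and 0.157). *ADAM17*, a related protease, had a log2 fold change of -0.11 (limma adjusted p = 0.178).

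In the nucleus, *RBPJ*, the DNA-binding partner of the receptor, measured 2.48 ± 0.192 and 2.39 ± 0.129 RPKM (SD, n = 3 each), with a log2 fold change of 0.05 (limma adjusted p = 0.735). *MAML2*, which encodes a Mastermind coactivator, was higher at 0.929, 0.720 and 0.776 RPKM in the HGC27-FN1 3′-UTR replicates against 0.435, 0.397 and 0.524 RPKM in the control replicates. Its log2 fold change was 0.72 (SE 0.15, limma adjusted p = 0.0273), and the call held without control replicate 3 (adjusted p = 0.0442) and was lost without any other library (between 0.0578 and 0.0910). Its relatives *MAML1* and *MAML3* had log2 fold changes of -0.12 and 0.07 and were not called. The acetyltransferase genes *EP300* and *CREBBP* were called lower, with log2 fold changes of -0.20 and -0.16. The call of *EP300* held without control replicate 1 and was lost without any other library, and that of *CREBBP* was lost without any one of the 6.

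Of the 10 corepressor genes, *TLE4* was called higher and *NCOR1* and *TLE2* lower, with log2 fold changes of -0.19 and -0.36 for the latter. Their calls were lost in 3 and 5 of the 6 fits that left out a library, *NCOR1* without HGC27-FN1 3′-UTR replicate 1 or 2 or control replicate 2, and *TLE2* without any library but control replicate 3. *TLE4*, a Groucho-type corepressor that HES proteins can recruit, measured 4.02, 3.65 and 3.64 RPKM in the HGC27-FN1 3′-UTR replicates and 2.54, 2.55 and 2.51 RPKM in the control replicates. The groups were far apart beside their spread. The log2 fold change was 0.55 (SE 0.058, limma adjusted p = 0.00404), and the call held in each fit that left out a library (between 0.0158 and 0.0250). An exon of *TLE4* overlaps the gene *RP11-79D8.2* on the same strand. *NUMB*, which promotes removal of the receptor, was the gene called among 6 tested turnover genes, with a log2 fold change of -0.20 (limma adjusted p = 0.0289), and the call was lost without any one library (between 0.0674 and 0.112).

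Of 4 further genes often listed as Notch targets, *MYC*, which encodes a growth-promoting transcription factor, fell from 103 ± 5.74 to 80.4 ± 1.83 RPKM (SD, n = 3 each), with a log2 fold change of -0.35 (limma adjusted p = 0.00733). *SOX9*, which encodes a progenitor-cell transcription factor, rose from 0.382 ± 0.040 to 0.696 ± 0.028 RPKM (SD, n = 3 each), with a log2 fold change of 0.72 (limma adjusted p = 0.0156). The call of *MYC* held in each fit that left out a library, and that of *SOX9* held without control replicate 1 or 3 and was lost without any other library (adjusted p between 0.0504 and 0.0619). *CCND1* had a log2 fold change of -0.01 (limma adjusted p = 0.898) and *CDKN1A* of 0.51 (limma adjusted p = 0.0896).

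**Figure D4:**
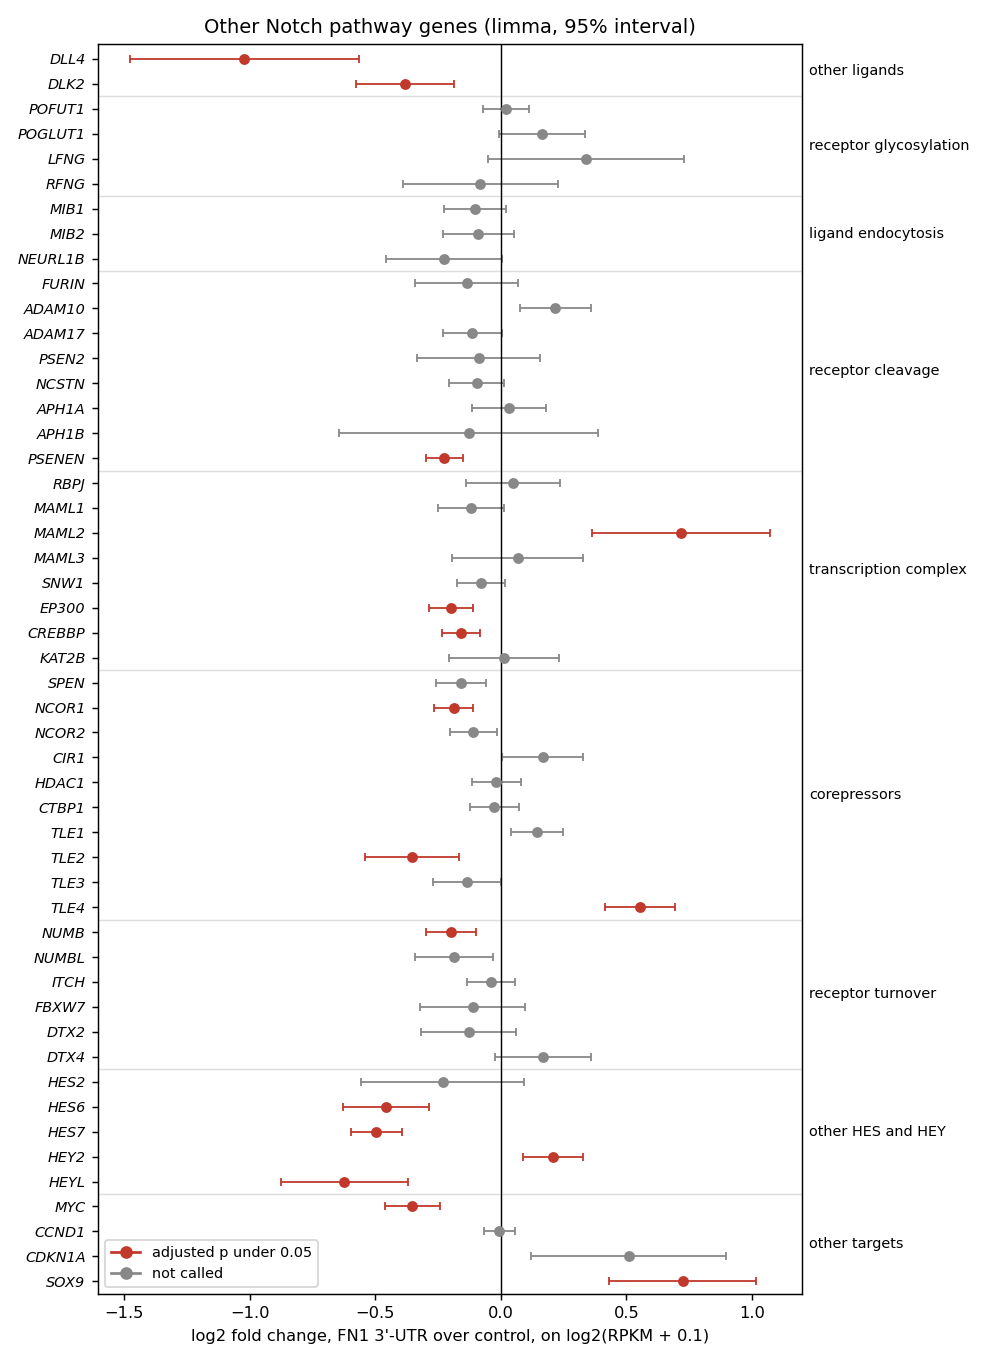
Log2 fold change of the 50 tested pathway genes outside the 10 members, HGC27-FN1 3′-UTR over HGC27-control, on log2(RPKM + 0.1), with 95% intervals from limma (n = 3 libraries each), grouped by role. Red marks an adjusted p under 0.05, with 4 genes to the right of 0 and 12 to the left, DLL4 at -1.02 being the farthest. DLL4 reached the minimum level of the test only with the control group.

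Values of some cell type markers differed between the groups, and those of others did not. The 12 epithelial markers summed to between 4.15 and 4.57 RPKM in control libraries, against 20.5 to 29.8 RPKM in those of HGC27-FN1 3′-UTR. Of these sums *KRT8* alone made up 2.02 to 2.29 RPKM, against 10.8 to 14.6 RPKM. *CLDN4*, *CLDN7*, *ESRP1* and *ESRP2* were not called, with log2 fold changes of -0.20, 0.10, 0.71 and 0.82. The 9 gastric mucosa markers analysed here summed to between 2.23 and 2.34 RPKM in control libraries, against 11.6 to 14 RPKM. Among them *MUC6* had a log2 fold change of 0.02 and was not called. Of 6 fibroblast and pericyte markers 3 were called higher (*COL1A1*, *COL3A1* and *LUM*), beside 5.62% of all genes. *PDGFRA*, *PDGFRB* and *DCN* were not called, and every HGC27-FN1 3′-UTR value of *PDGFRA* lay below every control value (log2 fold change of -0.21). All 6 together summed to 117 to 134 RPKM in control libraries, against 170 to 173 RPKM. Of 6 tested mesenchymal markers 3 were called higher (*TWIST1*, *SNAI2* and *FN1*, the last being the gene whose 3′-UTR was overexpressed). *VIM*, *ZEB1* and *ZEB2* had log2 fold changes of 0.01, 0.02 and -0.02 and were not called. The leukocyte markers summed to 3.11 to 3.61 RPKM in control libraries, against 2.90 to 3.18 RPKM, with *PTPRC* near 0, and held no call. *PECAM1*, which marks endothelium, was at 0 in every library. In bulk RNA, a change in the share of cells of one kind and a change in RNA per cell cannot be told apart.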

How the data were processed

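RNA-seq libraries of 3 HGC27-FN1 3′-UTR and 3 HGC27-control samples were analysed, grouped by the sample labels. The authors deposited RPKM per gene, 1 table per library, from a strand-specific mRNA kit. The submitters' processing notes name Trimmomatic 0.36, STAR 2.5.3a, featureCounts, Subread 1.5.1 and GRCh38. The annotation release is not given in the sources used here, and the deposited start and end were the same as in GENCODE release 29 for all members but *NOTCH1* and *JAG1*. Coordinates are those of the deposited tables.

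Reads were recovered from RPKM and gene length, and 100% of values above 0 came out whole within 0.02 reads. The model, limma 3.58.1 under R 4.3.3, had group as its term, a trend in the prior variance and log2(RPKM + 0.1) as the response. Genes entered it if at least 3 libraries reached 0.1 RPKM. An exact permutation test of 3 against 3 cannot go below p = 0.1, so single-gene tests rest on this fit. The fit was run on simulated reads with changes larger than those of the called members, so that run does not bear on calls of their size. Tables and figures used Python 3.11.15, pandas 2.3.3 and matplotlib 3.10.9. The floor of 3 reads was 0.0810 to 0.183 per 1000000 reads, covering counting error only.

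The members and lists were chosen with earlier results of these data known, and 1 gene of the pathway list is not reported here. The rule named all 10 members, pathway genes called with an absolute log2 fold change of at least 0.5, and *RBPJ*, *ADAM10*, *ADAM17*, *NOTCH4*, *HES5* and *FN1*. Alternatives were the pseudocount, the filter, the scaling, the replicate block, limma's voom on recovered reads, the prior and each library left out.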

Additional observations from a re-analysis of the deposited data

How the results depend on the processing

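The 10 members were refitted under 14 alternatives (13 for *DLL1*, which a mean RPKM of at least 1 left out). *HEY1* was called lower in all 14, *NOTCH1*, *NOTCH3* and *NRARP* were called lower in 8, 7 and 6, and *HES1* was called higher in 9. *NOTCH2*, *JAG1* and *RBPJ*, near 0, changed sign without HGC27-FN1 3′-UTR replicate 1 (*NOTCH2* -0.0162, *RBPJ* -0.0112), without control replicate 1 (*NOTCH2* -0.0054) or without HGC27-FN1 3′-UTR replicate 3 (*JAG1* -0.0019), and reached at most 0.103, 0.0585 and 0.0907 with a library left out. With voom on recovered reads, *JAG2* was also called lower (adjusted p = 0.0074), and with genes of mean RPKM of at least 1, so was *HES4* (0.0497). Over the 14 alternatives *JAG2* was called in 2 and *HES4* in 1. Of the 16 pathway genes called, 5 (*HES6*, *HES7*, *MYC*, *PSENEN* and *TLE4*) were called in every alternative.

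Counts called higher and lower were 1 and 4 for members, 4 and 12 for pathway genes and 1310 and 1715 for all genes. With the replicate number as a block they were 1 and 1, 1 and 4, and 564 and 598, and *FN1* had an adjusted p of 0.0852 at the same log2 fold change of 0.52. Deviations from the group means were nearly uncorrelated between same-numbered libraries (correlations of 0.0024, 0.0211 and 0.0103 across 23299 genes), so the numbers were not taken to pair the libraries. Each HGC27-FN1 3′-UTR library correlated best with the control library of its number, but correlations this small cannot decide whether the libraries are paired. With voom the counts higher and lower were 1 and 5 for members, 7 and 16 for pathway genes and 2042 and 3066 for all genes. Without a trend in the prior, members numbered 0 and 2, *HES1* having an adjusted p of 0.0535. Without a filter, 2 pathway genes were called higher and 10 lower, and *FN1* was not called (0.52, adjusted p = 0.0708). With 1 library left out, members ranged from 0 to 1 higher and 1 to 4 lower, pathway genes from 1 to 3 and 4 to 8, all genes from 501 to 927 and 470 to 1015, and the *FN1* log2 fold change from 0.46 to 0.55. Those fits rest on fewer libraries. Median-ratio scaling moved the median of all genes from -0.035 to -0.002. With it the counts higher and lower were 1 and 4 for members, 6 and 10 for pathway genes and 1717 and 1320 for all genes. The balance of all genes thus turned from lower to higher, and the shares called in each direction depend on the scaling. *CREBBP* (limma adjusted p = 0.0717) and *NUMB* (0.0525) were not called with this scaling. The cause of these changes was not tested. The share of promoters with the motif was 6.25% for GTGGGAA. The members' values with the fewest reads were those of *DLL1*, from 30 to 118 reads per library.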
